A study of Rattus norvegicus with 8 samples.

Results

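The integrated stress response genes examined here were Atf3, Ddit3, Cebpb, Ppp1r15a, Trib3, Asns and Atf4. They were taken by symbol, as every probe set of the array whose only platform gene symbol was one of these 7. Of the 7 genes, 6 had such a probe set, and Atf4 is not analysed here. The 6 genes had 9 probe sets, out of 8740 probe sets for 4736 named genes. Ppp1r15a, Trib3 and Cebpb had 2 each.

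RNA came from soleus, a mostly slow-twitch calf muscle that bears weight in standing, of female rats, and each Affymetrix array held a pool from 8 to 10 animals. The walked group (2 pools) had been prevented from standing on the hindlimbs for 12 h and then walked on a treadmill for 2 h in all, in 30 min bouts alternating with 30 min of cage activity over 4 h. The unloaded group (3 pools) had only the 12 h off the hindlimbs. The control group (3 pools) had 12 h of normal caged activity. The labels give neither strain nor age, and walking without prior unloading is not analysed here.

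The integrated stress response is a shared answer of cells to several kinds of stress. Kinases that sense misfolded protein in the endoplasmic reticulum, amino acid shortage, viral RNA or heme shortage phosphorylate the translation initiation factor eIF2, which slows protein synthesis in general while favouring translation of the transcription factor ATF4. ATF4 then turns on genes for amino acid supply together with further transcription factors (Atf3, Ddit3) and brakes on the response (Ppp1r15a, Trib3). Several of these genes are also induced by other routes: Atf3 is an immediate early gene, and Cebpb responds to cytokines and hormones. In muscle the response is known from fasting, mitochondrial disease and exercise.

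The regulatory sequence of the genes that changed in at least 1 comparison is shown for orientation, as the 250 bases before the gene start in the RefSeq annotation of rat assembly GRCr8. The promoter table held 6 of the 7 genes, Atf3 being without an entry. Capitals mark the letters searched for on both strands: TGACGTCA, the cyclic AMP response element that ATF and CREB family dimers bind; TGACG, its shorter core, which lies inside it; and TGATGNAA, the core of the composite element that C/EBP and ATF proteins bind together.
Ppp1r15a (chr1:105139597-105139846, minus strand): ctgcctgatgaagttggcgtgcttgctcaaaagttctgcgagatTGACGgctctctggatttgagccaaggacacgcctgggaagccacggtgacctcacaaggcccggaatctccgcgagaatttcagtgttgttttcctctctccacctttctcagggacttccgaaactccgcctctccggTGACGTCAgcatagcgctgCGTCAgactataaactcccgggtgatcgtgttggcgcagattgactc
Trib3 (chr3:161275534-161275783, minus strand): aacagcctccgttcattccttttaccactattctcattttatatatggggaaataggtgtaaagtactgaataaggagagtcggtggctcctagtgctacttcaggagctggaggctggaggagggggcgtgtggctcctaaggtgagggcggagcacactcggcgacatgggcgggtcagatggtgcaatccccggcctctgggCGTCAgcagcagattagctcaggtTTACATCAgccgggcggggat
Cebpb (chr3:176816755-176817004, plus strand): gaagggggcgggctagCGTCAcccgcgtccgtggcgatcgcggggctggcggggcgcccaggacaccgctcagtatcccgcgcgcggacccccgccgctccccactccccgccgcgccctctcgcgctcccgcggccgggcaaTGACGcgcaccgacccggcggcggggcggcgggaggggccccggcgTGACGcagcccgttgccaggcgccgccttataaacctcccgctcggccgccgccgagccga
Ddit3 (chr7:65001445-65001694, plus strand): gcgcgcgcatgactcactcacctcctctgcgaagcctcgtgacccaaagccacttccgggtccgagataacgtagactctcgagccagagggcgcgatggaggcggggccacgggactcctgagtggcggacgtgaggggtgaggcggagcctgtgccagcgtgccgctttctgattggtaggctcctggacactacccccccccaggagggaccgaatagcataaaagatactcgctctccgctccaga
In Ppp1r15a the full element lay 66 to 59 bases before the start and read the same on both strands, with further copies of the shorter core at 206 to 202 and 47 to 43 bases. The composite core occurred in Trib3, on the strand opposite to the one printed, 21 to 14 bases before the start, beside 1 shorter core. Cebpb had 3 shorter cores, and in Ddit3 none of the 3 letter strings occurred in this window. Among 33469 rat promoter windows of the same length, 1.59% held TGACGTCA, 18.2% held TGACG and 3.40% held TGATGNAA. These matches describe the letters and were not tested as binding sites.

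The deposited MAS5 signals had been scaled to one level (2% trimmed means of 148.3 to 148.8), and correlation of log2 signal between arrays of a group was 0.949 to 0.963. Control pool 3 stood furthest from the other groups, with correlations of 0.913 to 0.929, so its weight is given where it matters. Markers of slow fibres (6 of 9 tested) were among the brightest signals. Their summed signal was 28217 to 31059 in walked, 22083 to 30109 in unloaded and 20564 to 23108 in control arrays, and 3 of the 6 were called higher in walked than in control muscle. Leukocyte and macrophage markers (4 of 8 tested, none at 0) summed to 628 to 681 in walked, 651 to 779 in unloaded and 756 to 859 in control arrays. Fast fibre markers (8 of 8 tested) summed to 8635 to 9421 in walked, 11773 to 13646 in unloaded and 8274 to 10966 in control arrays, with 2 called lower in walked than in unloaded muscle. Smooth muscle markers (4 of 5 tested) summed to 1449 to 1734 in walked, 1071 to 1385 in unloaded and 1676 to 2356 in control arrays, with 1 called lower in unloaded than in control muscle. Fibroblast and matrix markers (6 of 6 tested) summed to 7202 to 7257 in walked, 7704 to 12018 in unloaded and 6648 to 9749 in control arrays. Of these, Dcn (1.83, limma adjusted p = 0.000123) and Lum (0.82) were called higher in unloaded than in control muscle, and in walked against control muscle Dcn was called higher (1.51) and Col1a2 lower (-1.03). Single markers of other lists were also called: Fabp4 of adipocytes higher (1.52) and Tpm3 of slow fibres lower (-0.95) in unloaded than in control muscle, Prx of Schwann cells lower (-1.23) in walked than in unloaded muscle, and Cd74 of leukocytes lower (-0.65) in walked than in control muscle. The part of these shifts in the results was not tested. In bulk muscle, fewer cells of a type and less RNA per cell cannot be told apart.

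Atf3 showed the widest span of the group. Its product is a stress-induced repressor and activator of the ATF/CREB family. The signal was 1213 and 1620.0 in the walked pools, 67.8, 96.7 and 79.0 in the unloaded pools, and 228, 278 and 171 in the control pools. The 3 groups did not overlap, and the order was walked, control, unloaded. Walked soleus averaged 1416 ± 288 (SD, n = 2), unloaded soleus 81.2 ± 14.6 (n = 3) and control soleus 225 ± 53.6 (n = 3).

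Ddit3 encodes CHOP, a C/EBP family factor that promotes death of cells under lasting stress. Its signal was 233 and 278 in walked, 111, 81.7 and 133 in unloaded, and 186, 141 and 222 in control pools. Every walked pool lay above every control pool and every control pool above every unloaded pool, with narrow gaps between them. The means were 255 ± 31.2 in walked, 109 ± 25.8 in unloaded and 183 ± 40.3 in control muscle.

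Cebpb, a C/EBP factor and dimer partner of ATF4 and CHOP, differed less between groups. On its brighter probe set, the signal was 776 and 763 in walked, 617, 542 and 675 in unloaded, and 438, 640.2 and 658 in control pools. On the dimmer one, whose name carries the letter s and which can match several transcripts, it was 516 and 506 in walked, 357, 338 and 350.0 in unloaded, and 249, 241 and 337 in control pools. The walked pools were highest on both probe sets, while unloaded and control overlapped on the brighter one.

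Ppp1r15a encodes GADD34, the stress-induced subunit that guides a phosphatase to eIF2 and so ends the translation block. Both probe sets came from the same sequence record and are not independent. On the brighter one the signal was 609.6 and 686 in walked, 84.9, 114 and 152 in unloaded, and 263, 254 and 293 in control pools. On the dimmer one it was 426 and 416 in walked, 65.7, 60.8 and 85.6 in unloaded, and 102, 122 and 86.1 in control pools. Both gave the order walked, control, unloaded without overlap, although on the dimmer probe set control pool 3 lay barely above unloaded pool 3.

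Trib3 encodes a pseudokinase induced by ATF4 and CHOP that binds the kinase AKT and ATF4 itself. Its brighter probe set had 111 and 113 in walked, 59.9, 121 and 54.7 in unloaded, and 55.6, 49.4 and 21.4 in control pools. Unloaded pool 2 stood above both walked pools and control pool 3 far below the other controls, so the unloaded (78.7 ± 37.1) and control (42.1 ± 18.2) pools were widely spread beside the walked ones (112 ± 1.21). Its dimmer probe set lay at 8.31 and 14.6 in walked, 4.90, 12.1 and 28.9 in unloaded, and 4.80, 16.5 and 13.9 in control pools, with no separation.

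Asns encodes asparagine synthetase, a classic ATF4 target of amino acid shortage. It was dim on every array, at 24.4 and 11.6 in walked, 12.5, 30.2 and 6.70 in unloaded, and 9.99, 15.4 and 9.80 in control pools. The groups overlapped fully. Asns and the dimmer Trib3 probe set lay under the filter on low signal (a mean of 25.8, the 40th percentile), so they were not tested, and 7 of the 9 probe sets, for 5 genes, were.

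**Figure D1:**
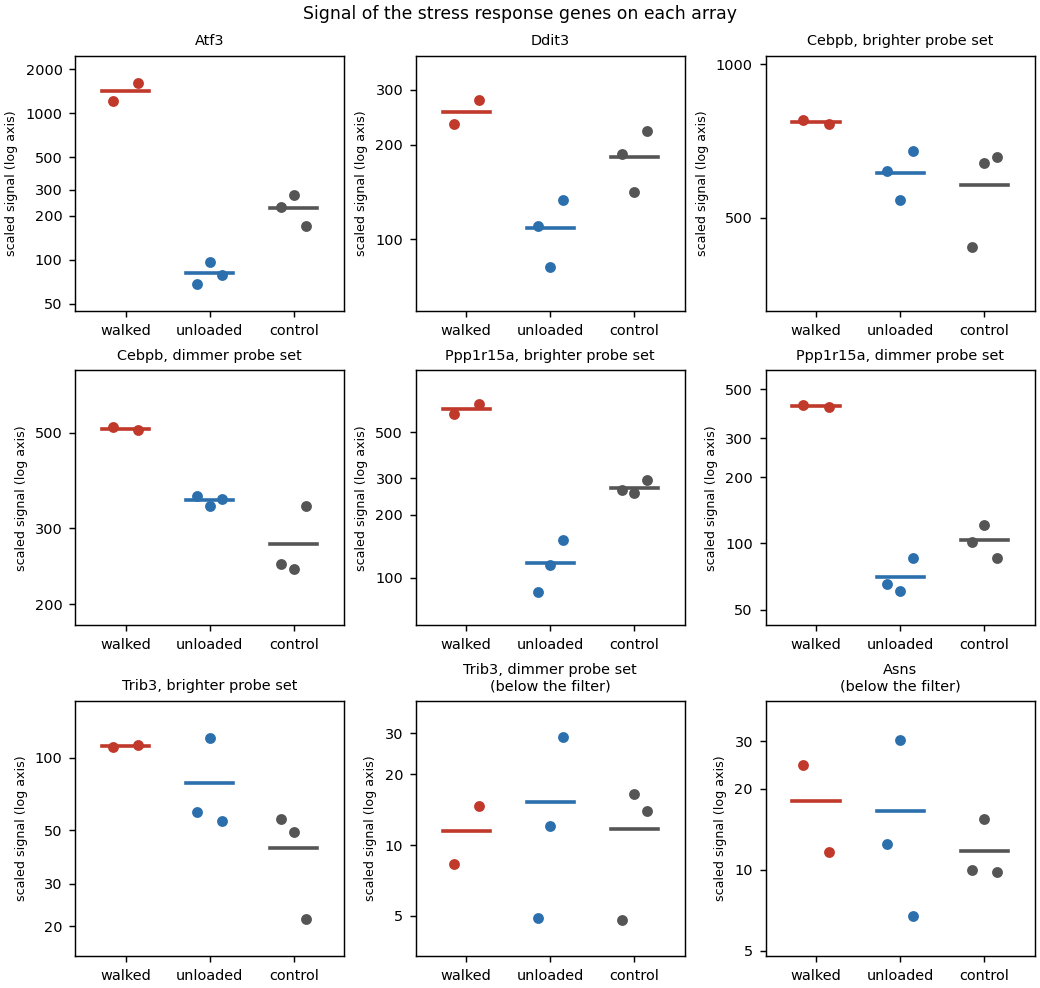
Scaled MAS5 signal (log axis, a separate range in each panel) of the 9 probe sets on every array, for walked (n = 2), unloaded (n = 3) and control (n = 3) pools. Points are pools and bars are group means. Atf3, Ddit3 and Ppp1r15a are highest in the walked and lowest in the unloaded pools, whereas Asns (6.70 to 30.2) and the dimmer Trib3 probe set overlap in all groups.

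Walked against unloaded muscle compared soleus after unloading and 4 h of alternating walking and cage activity with soleus after unloading alone. No group was returned to cage activity without walking. Effects of walking, of standing on the hindlimbs again and of the added 4 h therefore cannot be told apart. Atf3, Ppp1r15a and Ddit3 rose. Atf3 was 17.4-fold higher (log2 fold change 4.12 ± 0.23 SE, limma with Benjamini-Hochberg adjustment over all tested probe sets, adjusted p = 1.58e-06), the 6th highest fold change of 5244 tested probe sets. Ppp1r15a was 5.68-fold higher on its brighter probe set (2.51 ± 0.22, adjusted p = 4.52e-05) and 6.02-fold higher on the dimmer (2.59 ± 0.21, adjusted p = 2.60e-05). Ddit3 was 2.39-fold higher (1.26 ± 0.25, adjusted p = 0.0131).

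Cebpb and Trib3 did not pass the test here. The dimmer Cebpb probe set had 0.55 ± 0.17 (adjusted p = 0.109, 95% interval 0.18 to 0.93) and the brighter 0.34 (-0.08 to 0.75). Trib3 had 0.61 with an interval of -0.34 to 1.56, wide enough to hold a change as large as that of Ddit3. Asns, fitted without the filter, had 0.31 ± 0.67.

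In all, 4 of the 7 tested probe sets (3 of 5 genes) were called higher, against 2.73% of all tested probe sets. Limma called 0 of the 7 lower, with 0 at an unadjusted p under 0.05, against 1.47% called lower of all probe sets. The median of the 7 was 1.26 and that of all tested probe sets -0.05. Since the genes were chosen with earlier results of these data known, this share is a description. The Ddit3 call was lost without walked pool 1 (adjusted p = 0.0649) or walked pool 2 (0.140), with no filter (0.0913) and without the mean-variance trend (0.0519), and the dimmer Cebpb probe set was called without control pool 3 (0.0379). The Atf3 and Ppp1r15a calls held under each of 17 alternatives.

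Unloaded against control muscle asked what 12 h without standing changed. Atf3 and Ppp1r15a fell. Atf3 was lower by a log2 fold change of -1.46 ± 0.21 (limma adjusted p = 0.00163), a level 0.364 times that of control. The brighter Ppp1r15a probe set had -1.24 ± 0.20 (adjusted p = 0.00308), and the dimmer -0.55 ± 0.19 (adjusted p = 0.112), which was not called although it points the same way.

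Ddit3 had -0.76 ± 0.22 and missed the threshold (adjusted p = 0.0623, interval -1.24 to -0.28). It was called with the pool number as a block (0.0354), with a stricter filter (0.0428), without control pool 2 (0.0357) and without unloaded pool 3 (0.0378). Trib3 pointed up, at 0.92 ± 0.38 (adjusted p = 0.194), and came to 0.49 without control pool 3 and 0.56 without unloaded pool 2. Cebpb had 0.10 and 0.35 on its 2 probe sets. The dimmer one was called only without control pool 3, at 0.51 (adjusted p = 0.0489). Asns, fitted without the filter, had 0.25 ± 0.60.

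Of the 7 tested probe sets, 2 were called lower, against 3.32% of all. None passed limma's test upward (0 called, 2 higher at an unadjusted p under 0.05), against 3.99% of all probe sets called higher. The median of the 7 was -0.55 and that of all tested probe sets -0.08.

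Walked against control muscle set the end point of both treatments beside normal caged activity. Control rats had 12 h of cage activity, and walked rats had 12 h of unloading followed by a further 4 h. Effects of that added time cannot be told apart from those of the treatments. Atf3 stood 6.34-fold above control (2.67 ± 0.23, limma adjusted p = 8.86e-05). Ppp1r15a stood 2.40-fold above on its brighter probe set (1.26 ± 0.22, adjusted p = 0.00713) and 4.12-fold on the dimmer (2.04 ± 0.21, adjusted p = 0.000245). The dimmer Cebpb probe set was 1.87-fold higher (0.91 ± 0.17, adjusted p = 0.00986) and the brighter had 0.43 (adjusted p = 0.180, interval 0.02 to 0.85). Trib3 passed the threshold narrowly, at 1.53 ± 0.43 (adjusted p = 0.0497).

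Ddit3, which rose over unloaded muscle, was not called over control. Its log2 fold change there was 0.50 ± 0.25 (adjusted p = 0.239), with an interval of -0.04 to 1.04. Asns, fitted without the filter, had 0.56 ± 0.67.

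Of the 7 tested probe sets, 5 were called higher, against 4.46% of all tested probe sets. Limma called 0 lower, with 0 at an unadjusted p under 0.05, against 4.61% of all called lower. The median of the 7 was 1.26 and that of all -0.11. The Trib3 call was lost under 10 of the 17 alternatives, and its size was 1.10 without control pool 3 (adjusted p = 0.0900). Without walked pool 2 the calls of the brighter Ppp1r15a probe set (0.0786) and of Cebpb (0.0767) were lost, and that of Cebpb also without walked pool 1 (0.0724). With no filter the call of the brighter Ppp1r15a probe set was lost as well (0.0502). This comparison shares its walked arrays with the first and its control arrays with the second, so the 3 sets of values are not independent.

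**Figure D2:**
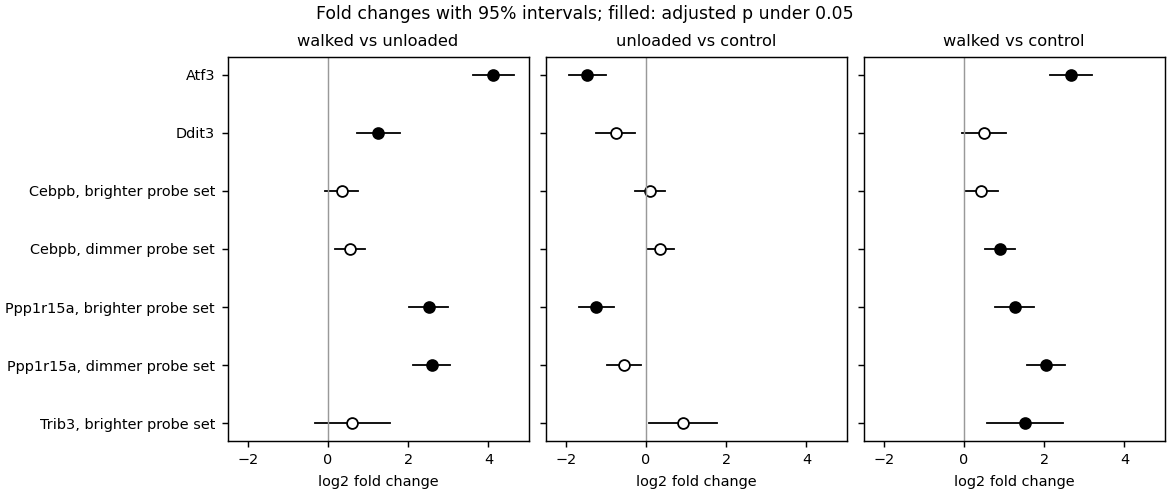
Log2 fold change (points) and 95% interval (lines) of the 7 tested probe sets in the 3 comparisons, from limma on all 8 arrays. Filled points had an adjusted p under 0.05. Atf3 reached 4.12 in walked against unloaded muscle and -1.46 in unloaded against control muscle, while the Trib3 intervals are the widest in each comparison.

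Other genes of the pathway were followed in 4 lists (eIF2 kinases and cycle, ATF4 targets, the unfolded protein response and dimer partners), with 47 genes tested by their brightest probe set. In walked against unloaded muscle 5 rose and 0 fell (limma; 10 and 4 at an unadjusted p under 0.05), where 2.35% of all genes were called higher and 1.74% lower. In unloaded against control muscle 1 rose and 3 fell (1 of them, Cth, with unloaded signals under the filter), where 3.71% were called higher and 2.5% lower. In walked against control muscle 3 rose and 1 fell, where 3.74% were called higher and 4.63% lower. The calls lay in 3 of the 4 lists. How many of all genes had an unadjusted p under 0.05 was not counted. The unadjusted counts here and elsewhere therefore have no share of all genes beside them.

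Upstream of these genes lie the eIF2 kinases and the factors that recycle eIF2. Of 17 such genes, 12 were tested, and limma called 0 in any comparison. Of all genes, 1.74% to 4.63% were called per direction and comparison, so 0 of 12 lies near that share. At an unadjusted p under 0.05, 0 were higher and 0 lower in walked against unloaded muscle, 1 higher in unloaded against control, and 2 higher and 1 lower in walked against control muscle. The list's medians were -0.12, 0.02 and -0.21 in these comparisons, against -0.05, -0.08 and -0.11 for all 3154 genes. Eif2ak3, the kinase PERK of the endoplasmic reticulum, was dim, at 22.5 ± 7.52 in walked, 24.8 ± 0.28 in unloaded and 31.7 ± 13.3 in control muscle. Eif2ak2, the kinase PKR that senses double-stranded RNA, had 29.1 ± 11.6, 43.7 ± 3.35 and 37.6 ± 12.9 in the same order. Eif2ak1, the heme-regulated kinase, lay under the filter at 19.2, 17.2 and 17.6. These kinases act through phosphorylation, which RNA does not report.

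Among 41 listed ATF4 targets of amino acid supply and stress, 15 were tested. In walked against unloaded muscle 1 rose and limma called 0 lower (4 at an unadjusted p under 0.05). Of all genes, 2.35% were called higher and 1.74% lower in that comparison. The rise was in Slc3a2, the shared heavy chain of several amino acid transporters, at 1070 and 1006 in walked, 445, 362 and 577 in unloaded, and 635, 695 and 692 in control pools. Its 3 groups did not overlap, and its log2 fold change was 1.196 ± 0.18 (adjusted p = 0.00269) against unloaded muscle. A second Slc3a2 probe set was called in all 3 comparisons (1.43, -0.54 and 0.89), the first only here. That first set had -0.57 in unloaded against control (limma adjusted p = 0.0605) and 0.62 in walked against control muscle (0.0560). Each of these was called under some alternatives. Both Slc3a2 sets carry the letter s in their names and can match several transcripts. The partner chain of Slc3a2, Slc7a5, had 0.38 in walked against unloaded muscle and was not called.

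By brightest probe sets, 1 of 15 tested ATF4 targets rose and 1 fell in unloaded against control muscle. Of all genes, 3.71% were called higher and 2.5% lower there, so 1 call each way lies near that share. Gadd45a, a growth arrest gene, had 323, 259.9 and 428 in unloaded and 129, 147 and 135 in control pools, a log2 fold change of 1.27 ± 0.20 (adjusted p = 0.00282). It was called on all 3 of its tested probe sets. Cth, an enzyme of cysteine synthesis, had 8.49, 8.40 and 8.80 in unloaded and 56.1, 43.8 and 64.0 in control pools (-2.66 ± 0.41, adjusted p = 0.00284). Cth passed the filter through its control signal, and its second probe set lay below the filter. By brightest probe sets, in walked against control muscle 0 passed limma's test upward (2 at an unadjusted p under 0.05) and 1 was lower, Vldlr, a lipoprotein receptor (-0.98 ± 0.24, adjusted p = 0.0321). The Vldlr call was lost without control pool 2 (0.0921) or 3 (0.0768) or walked pool 1 (0.104) or 2 (0.170). It was also lost with quantile normalization (0.0539), no filter (0.0675) and the pool number block (0.0805). Of 3 probe sets for Eif4ebp1, which encodes a repressor of translation initiation, 1 was called higher in unloaded against control (0.91, adjusted p = 0.00417) and in walked against control muscle (0.85, adjusted p = 0.0134), and the other two, the brightest among them, were not. The medians of the list were 0.14, -0.04 and 0.05.

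The unfolded protein response of the endoplasmic reticulum shares its PERK arm with the integrated stress response. Of 22 listed genes 11 were tested. By brightest probe sets 1 rose in walked against unloaded muscle (5 higher at an unadjusted p under 0.05), where 2.35% of all genes were called higher. Of the 11, 10 lay above 0, where the median of all tested genes was -0.05. The called gene was Hspa5, the chaperone BiP, with 658 and 673 in walked, 187, 169 and 242 in unloaded, and 440.2, 406 and 326 in control pools. Its 3 groups did not overlap. The name of this Hspa5 probe set carries the letter s, so it can match several transcripts. The log2 fold changes were 1.75 ± 0.19 in walked against unloaded (adjusted p = 0.000191), -0.97 ± 0.17 in unloaded against control (adjusted p = 0.00547) and 0.78 ± 0.19 in walked against control muscle (adjusted p = 0.0306). A second Hspa5 probe set was called in walked against unloaded muscle (1.497) but not in the others (adjusted p = 0.0737 and 0.399). By brightest probe sets, 1 gene of the list fell in unloaded against control muscle, again Hspa5, where 2.5% of all genes were called lower. At an unadjusted p under 0.05, 6 were lower there, a count without a matching share of all genes. Other probe sets carried further calls. Of 3 Hsp90b1 probe sets, for the chaperone GRP94, 2 were called in walked against unloaded muscle (0.94, adjusted p = 0.00835, and 0.98, adjusted p = 0.0276) and the brightest was not (0.42, adjusted p = 0.199). In unloaded against control muscle 1 of these Hsp90b1 sets (-0.61, adjusted p = 0.0335) and 1 of 3 for the chaperone Calr (-0.83, adjusted p = 0.0193) were called lower. Both of these sets carry the letter s as well. Limma called 0 of the list lower in walked against unloaded muscle (0 at an unadjusted p under 0.05) and 0 higher in unloaded against control muscle (1 unadjusted).

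Dnajb9, a BiP co-chaperone, joined Hspa5 as a call in walked against control muscle (0.93 ± 0.21, adjusted p = 0.0216). There limma called 0 of the list lower (1 unadjusted). The walked against control calls of Hspa5 and Dnajb9 were lost without walked pool 1 (0.125 and 0.115) or 2 (0.164 and 0.110) and without control pool 2 (0.0587 and 0.0562), that of Hspa5 also without control pool 3 (0.0657) and that of Dnajb9 without control pool 1 (0.0501). Both were also lost with no filter (0.0910 and 0.0561) and under the pool number block (0.0669 and 0.0610), and that of Hspa5 with no mean-variance trend (0.0806). The list medians were 0.42, -0.46 and 0.08.

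The products of Atf3, Ddit3 and Cebpb act as dimers with other basic leucine zipper factors, and 10 of 16 such partners were tested. In walked against unloaded muscle 3 rose: Crem (1.86 ± 0.20, adjusted p = 0.000194), Junb (1.33 ± 0.22, adjusted p = 0.00449) and Fos (1.70 ± 0.30, adjusted p = 0.00762). Limma called 0 of the 10 lower, with 0 at an unadjusted p under 0.05. Crem, which includes a cyclic AMP-induced repressor, had 581 and 520.3 in walked, 166, 157 and 133 in unloaded, and 239.9, 240.5 and 161 in control pools. On the brightest probe sets, the Junb call was lost without walked pool 2 (log2 fold change 1.20). The Fos call was lost with no filter (adjusted p = 0.10004) and without walked pool 1 or 2 (log2 fold changes 1.80 and 1.59). Other probe sets were called too: Junb (1.36, adjusted p = 0.00884), Fos (1.91, adjusted p = 0.00156) and Crem (3.85 and 2.18). Those of Crem had unloaded means of 21.1 and 24.3, under the filter value. A further Fos probe set was not called (2.58, adjusted p = 0.0665).

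In unloaded against control muscle 1 of the 10 fell, Junb (-0.76 ± 0.20, adjusted p = 0.0415). That call was lost when any 1 array other than control pool 1 or unloaded pool 3 was left out (adjusted p up to 0.141), and also with quantile normalization (0.0584), no filter (0.121), no mean-variance trend (0.0857) and only the 2 groups compared (0.0635). A second Junb probe set had -0.45 (adjusted p = 0.274). Fos and Crem were not called on their brightest probe sets but were on another (-1.02, adjusted p = 0.0264, and -1.22, adjusted p = 0.0263). The brightest Fos set was called without unloaded pool 2 (-1.09, adjusted p = 0.0282) and that of Crem without control pool 3 (-0.67, adjusted p = 0.0309). By brightest probe sets limma called 0 higher, and 0 were higher at an unadjusted p under 0.05. By brightest probe sets, 1 rose in walked against control muscle, Crem (1.39 ± 0.20, adjusted p = 0.00253), and limma called 0 lower, with 0 unadjusted. The second Junb probe set was called higher there too (0.90, adjusted p = 0.0464), the brightest not (0.58, adjusted p = 0.129). The brightest Fos set had 0.93 there (adjusted p = 0.0804) and was called under some alternatives. Cebpd and Cebpg, close relatives of Cebpb, had 0.17 and 0.64 in walked against unloaded muscle and were not called. Other Cebpd probe sets had 0.61 and 0.79 there, also without a call. The list medians were 0.34, -0.33 and 0.27.

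**Figure D3:**
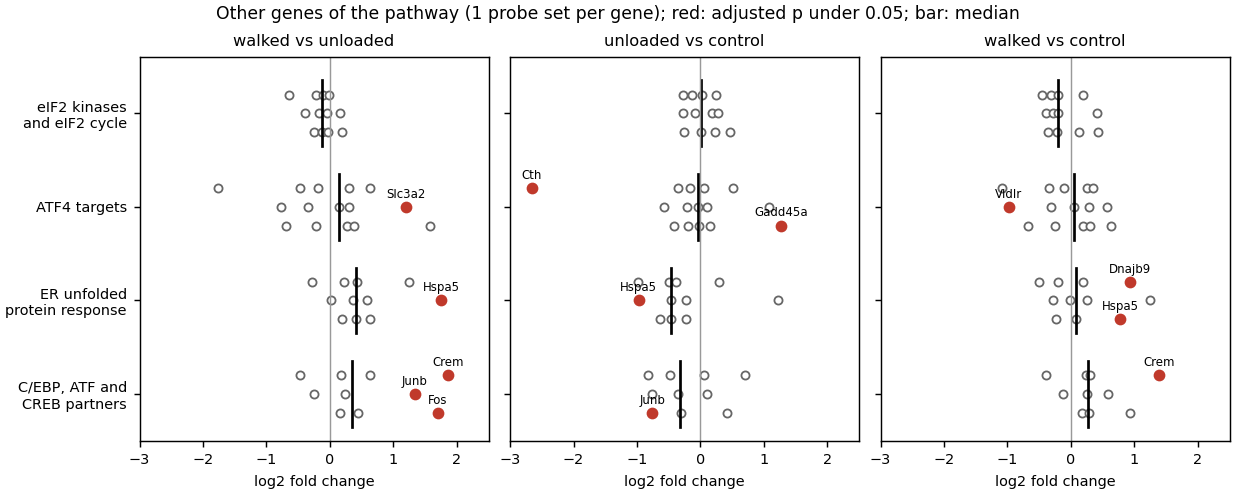
Log2 fold change of the tested genes of 4 pathway lists (1 probe set per gene, the brightest) in the 3 comparisons. Red points with names had an adjusted p under 0.05, open points did not, and vertical bars are list medians. The eIF2 list holds no called gene among 12 tested, where 1.74% to 4.63% of all genes were called per direction and comparison. Cth is drawn at -2.66, having passed the filter only through its control signal.

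The genes whose log2 signal followed these genes most closely over the 8 arrays were also identified, among 3149 other genes. Such a correlation rests on the differences between groups as much as on those within, so it describes likeness over these arrays only. For Atf3 they were the angiogenic growth factor gene Vegfa (Pearson r = 0.982), the heat shock co-chaperone gene Dnajb5 (0.978) and the orphan nuclear receptor gene Nr4a1 (0.976). Vegfa averaged 957 in walked, 269 in unloaded and 381 in control muscle, and Nr4a1 1673, 80.8 and 334. For Ppp1r15a they were the kinase gene Dyrk1a (0.985), the heat shock co-chaperone gene Dnajb1 (0.978) and the small heat shock protein gene Hspb1 (0.975). Dyrk1a followed the order but over a narrow span, at 375 in walked, 291 in unloaded and 339 in control muscle. Neither Dyrk1a nor Dnajb1 was called in any comparison. Over the 3149 genes the 99th percentile of r was 0.910 for Atf3 and 0.905 for Ppp1r15a.

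For Ddit3 the nearest were the cytoskeletal genes Actg1 (0.959) and Tpm4 (0.953), then Dyrk1a (0.945). For Trib3 they were the cohesin gene Smc1a (0.966), the protease gene Furin (0.957) and the anion exchanger gene Slc4a1 (0.948), none of which passed the test in any comparison. For Cebpb, by its brighter probe set, they were Mecr (0.977), Pdlim3 (0.896) and Cnksr3 (0.863), also without a call. Mecr is an enzyme of mitochondrial fatty acid synthesis and Pdlim3 a protein of the Z-disc. That Cebpb set was itself called in no comparison and correlated at 0.752 with the dimmer one. The 99th percentile of r was 0.871 for Ddit3, 0.847 for Trib3 and 0.713 for Cebpb.

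**Figure D4:**
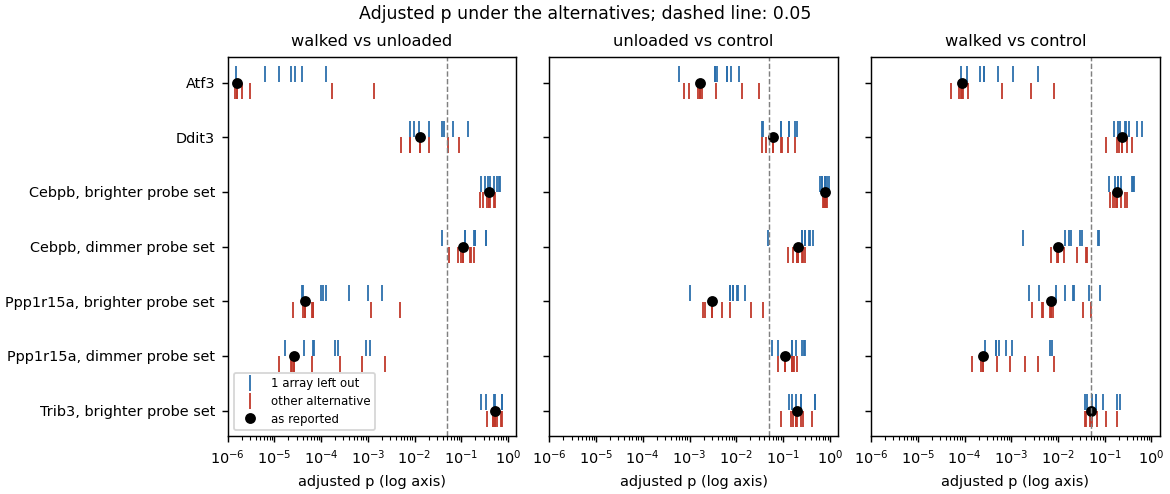
Adjusted p (log axis) of the 7 tested probe sets in the 3 comparisons, as reported (points), with 1 array left out (blue ticks) and under the other alternatives (red ticks). The dashed line is the threshold of 0.05. Atf3 stays left of the line in all 3 panels, and Trib3 in walked against control muscle sits on it at 0.0497.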

How the data were processed

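Each of 8 one-colour Affymetrix arrays measured soleus RNA of 1 pool of rats. The deposited values are signal intensity per probe set on a linear scale, which the submitters' processing notes credit to MAS5. Neither its version nor its scaling was stated in the labels. MAS5 subtracts a background estimate, so low signals are noisy.

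Signals were scaled to one 2% trimmed mean (148.6), floored at the 10th percentile (4.10) and log2-transformed. Of 8740 probe sets, 5244 at or above the 40th percentile of mean signal were tested with limma 3.58.1 in R 4.3.3 (3 group levels over 8 arrays, eBayes with trend, 5 residual degrees of freedom, prior 6.00), two-sided, with Benjamini-Hochberg adjustment over all 5244. A probe set is called at an adjusted p under 0.05. The procedure was also run on simulated data with independent noise for each probe set. Those data held no array or pool effects, so the run does not test the calls made here. The number of arrays limits the precision: the smallest exact permutation p for 1 gene is 0.1, so calls rest on spread pooled across genes. The labels do not say how pools were made up, so p-values measure only the spread between pools.

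Symbols came from the platform annotation through Entrez IDs (7006 probe sets with 1 symbol, 308 with several, 1426 unnamed). List counts use the brightest tested probe set of a gene (3154 genes). The named genes were all probe sets of the 7 stress response genes, up to 6 called genes of each list per direction and comparison, the eIF2 kinases, and the 3 genes most correlated with each tested stress response gene. Slc7a5, Cebpd, Cebpg, Hsp90b1, Calr, Eif4ebp1 and the called cell type markers were named after their values were seen. The genes and lists were chosen with earlier results of these data known. Alternatives were quantile normalization, no rescaling, no floor or a 20th percentile floor, no filter or a 60th percentile one, no trend, only the 2 groups compared, the pool number as a block, and each array left out.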

Additional observations from a re-analysis of the deposited data

How the results depend on the processing

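Of 21 tests on stress response probe sets (7 in 3 comparisons), 11 passed the threshold. Of these, 7 passed under all 17 alternatives and 4 were lost under at least 1. Of the 10 that did not pass, 3 passed under at least 1 alternative. No called fold change turned its sign. The cause of these shifts was not tested, beyond the fewer arrays or the larger number of tests that an alternative implies. Stress response probe sets called higher in walked against control muscle numbered 5, 3 with no filter and 2 to 5 with 1 array left out. Those called higher in unloaded against control muscle numbered 0, and 0 to 1 with 1 array left out.

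Pathway genes called higher in walked against unloaded muscle numbered 5 (3 to 6 with 1 array left out), and lower 0 (1 with only the 2 groups compared, 0 to 1 with 1 array left out). In unloaded against control muscle 1 was higher (1 to 2 with 1 array left out) and 3 lower (2 to 5). In walked against control muscle 3 were higher (1 with no filter, 5 with only the 2 groups compared, 1 to 5 with 1 array left out) and 1 lower (0 with no filter, with quantile normalization and under the pool number block, 2 with no trend, 0 to 1 with 1 array left out).

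Over all probe sets, walked against unloaded muscle had 143 higher (82 to 154 with 1 array left out) and 77 lower (41 with no filter, 40 with no trend, 48 with the pool number as a block, 38 to 107 with 1 array left out). Unloaded against control muscle had 209 higher (118 with no filter, 137 with no trend, 122 to 202 with 1 array left out) and 174 lower (110 with no filter, 106 with no trend, 106 to 203 with 1 array left out). Walked against control muscle had 234 higher (124 with no filter, 129 with no trend, 66 to 257 with 1 array left out) and 242 lower (92 with no filter, 82 with no trend, 84 with the pool number as a block, 38 to 247 with 1 array left out). With 1 walked array left out, the lone walked array is assumed to vary like the other groups.

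Deviations of same-numbered pools from their group means correlated at -0.07 to 0.05 over 7 pairs, and 0 pairs passed 0.1. Whether same-numbered pools shared an origin or batch is not given in the labels and was not tested. With so few pools in each group, these correlations cannot decide it. With the pool number as a block, 4 stress response probe sets were called higher in walked against unloaded muscle, 4 higher in walked against control muscle and 3 lower in unloaded against control muscle. Dim signals limit what Asns, the second Trib3 probe set and the eIF2 kinases can show.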
